A study of Mus musculus with 4 samples.

Results

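The variable (V) genes of the T cell receptor alpha chain (Trav) and beta chain (Trbv) were examined in single-cell RNA libraries of mouse spleen. Genes were taken by symbol: every row named Trav or Trbv with at least 5 unique molecular identifiers (UMIs, which count captured RNA molecules) over all 4 libraries. The files held 163 such rows among 32285 genes, and 92 passed, of which 69 were Trav genes on chromosome 14 and 23 were Trbv genes on chromosome 6. These 92 genes held 6095 of the 6128 UMIs of all 163 rows. Just inside the minimum, 5 genes had 5 UMIs (Trav7-1, Trav7d-2, Trav13d-1, Trav9d-4 and Trav7n-4). Just outside it, 3 genes had 4 UMIs (Trav6-1, Trav4d-2 and Trav9n-1), and 54 rows were at 0.

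The D3TA group was 2 female C57BL/6J mice heterozygous for a constitutive knock-in made with CRISPR/Cas9, which replaces threonine with alanine at residue 283 of cyclin D3 (gene Ccnd3) in all cells. The WT group was 2 wild-type female mice matched for age and sex. The mice were 12 and 16 months old, an age at which the D3TA model has severe myeloproliferative disease, and the labels used here do not tie an age to a library. Each library came from the spleen of a single mouse after mechanical dissociation and red cell lysis, with 10000 cells targeted per library on a droplet (10x Chromium) instrument. A base substitution cannot be read from gene counts, so the genotype was taken from the labels and not checked against Ccnd3.

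Each developing T cell builds its receptor by cutting and joining gene segments: a V and a joining segment for the alpha chain, and a V, a diversity and a joining segment for the beta chain. The joined beta segment is spliced to either of 2 constant genes, Trbc1 or Trbc2, and the alpha segment to the only alpha constant gene, Trac. Daughter cells inherit the joined receptor, so cells of a clone share their V genes and their beta constant gene, whereas a naive population uses many V genes. Cells that share a V gene need not be a clone, because the joined junctions also differ, and junctions were not measured here.

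The germline 3′ ends of the V genes that the results turn on are shown because the junction of a receptor begins in these bases. The sequences are the last 60 bases of the GENCODE M21 transcript of each gene, on build GRCm38 and on the plus strand. All lie in the last of 2 exons, in coding sequence. Capitals mark the stretch from the codon of the conserved cysteine, which opens the third complementarity-determining region, to the end of the germline segment. Trav21-dv12 (chr14:53876693-53876752) and Trav13-1 (chr14:53545466-53545525) led Gzmk-positive and CD8 T cells of D3TA replicate 1. Trbv14 (chr6:41135557-41135616) accompanied Trav21-dv12, Trbv13-1 (chr6:41116409-41116468) led CD4 T cells of D3TA replicate 1, and Trbv17 (chr6:41163497-41163556) led CD8 T cells of D3TA replicate 2. Trbv2 (chr6:41047936-41047995) and Trbv20 (chr6:41188918-41188977) differed in level between CD8 and CD4 T cells.
Trav21-dv12: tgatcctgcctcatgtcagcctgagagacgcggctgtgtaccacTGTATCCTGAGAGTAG
Trav13-1: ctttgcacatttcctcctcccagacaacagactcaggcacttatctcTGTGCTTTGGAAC
Trbv14: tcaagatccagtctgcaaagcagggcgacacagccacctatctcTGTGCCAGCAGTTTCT
Trbv13-1: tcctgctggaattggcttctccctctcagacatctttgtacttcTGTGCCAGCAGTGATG
Trbv17: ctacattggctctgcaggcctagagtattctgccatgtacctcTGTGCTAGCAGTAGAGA
Trbv2: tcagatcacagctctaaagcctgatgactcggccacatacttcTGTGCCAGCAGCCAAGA
Trbv20: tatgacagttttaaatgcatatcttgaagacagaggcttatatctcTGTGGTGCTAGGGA

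After filtering, 52330 cells of 64410 barcodes remained: 11792 and 10573 in D3TA replicates 1 and 2, and 22286 and 7679 in WT replicates 1 and 2. Median UMIs per cell were 7752 and 7559 in the D3TA libraries, and 1393 and 7919 in the WT libraries, so WT replicate 1 stood apart by its low depth. Between any 2 libraries, 18 to 87 kept cells had the same barcode (0.234% to 0.738% of the smaller library). Among T cells, 46 and 22 in the D3TA libraries, and 26 and 20 in the WT libraries, had a barcode also found in another library. T cells were gated by their Cd3 genes (Cd3d, Cd3e and Cd3g, the signalling chains of the receptor) and numbered 3038 and 2098 in D3TA, and 1703 and 1223 in WT. D3TA replicate 1 stood apart by its Gzmk-positive T cells, those with a UMI of the granzyme gene Gzmk, which were 1769 of its T cells (58.2%). Gzmk-positive T cells were 75 (3.57%) in D3TA replicate 2, 22 (1.29%) in WT replicate 1 and 96 (7.85%) in WT replicate 2. CD8 T cells (no Gzmk UMI, Cd8a or Cd8b1 but no Cd4) numbered 457 and 838 in D3TA, and 666 and 238 in WT. CD4 T cells (no Gzmk UMI, Cd4 but no Cd8a or Cd8b1) numbered 405 and 677 in D3TA, and 364 and 599 in WT.

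Markers that the gates did not use were those of T cells. The kinase gene Lck had a UMI in 75.2% to 95.8% of cells over the 12 combinations of class and library, and Trac in 69.8% to 90.5%, against 7.5% to 16.6% and 2.7% to 6.7% of gated B cells. Eomes, a transcription factor of effector T cells, was detected in 83.3% and 86.7% of Gzmk-positive cells of the D3TA libraries, and in 50% and 65.6% of those of the WT libraries. RNA of T cell genes was found in gated B cells, most often in D3TA replicate 1. A UMI of the chemokine gene Ccl5 was found in 80.1% of its B cells, against 13.6% to 16.0% in the other 3 libraries, and a Gzmk UMI in 4.60% of its B cells, against 0.02% to 0.20%. The median T cell held 29 and 18 UMIs of neutrophil markers in the D3TA libraries and 0 in both WT libraries. Of the V gene UMIs in kept cells, 93.6% and 92.7% lay in T cells in D3TA, and 72.0% and 92.6% in WT, so WT replicate 1 had the largest part outside the T cell gate. Whether free RNA or remaining doublets gave these values was not tested, nor was their part in the V gene results.

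V genes were sparsely detected. A Trbv UMI was found in 22.2% and 15.1% of T cells in D3TA, and in 15.3% and 22.2% in WT. A Trav UMI was found in 29.95% and 14.9% of T cells in D3TA, and in 17.5% and 20.3% in WT, so D3TA replicate 1 had the highest Trav share and D3TA replicate 2 the lowest. With each T cell thinned to 2000 UMIs the Trav shares were 12.7% and 4.71% in D3TA, and 7.41% and 6.88% in WT, in the same order except for the WT libraries. Thinning left out 94 and 14 shallower cells in D3TA, and 512 and 13 in WT. In B cells, which lack this receptor, Trav UMIs were found in 0.602% and 0.131% of cells in D3TA, and in 0.402% and 0.061% in WT. Each T cell was then assigned the Trav gene and the Trbv gene with the most UMIs, ties left out. Trav calls numbered 890 and 289 in D3TA, and 282 and 223 in WT. Trbv calls numbered 616 and 306 in D3TA, and 251 and 251 in WT.

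The plainest feature of V gene usage was the loss of Trav evenness in a single library. In D3TA replicate 1, most Gzmk-positive T cells with a Trav call carried Trav21-dv12 and most CD8 T cells with a Trav call carried Trav13-1, whereas in CD8 and CD4 T cells of the other 3 libraries no Trav gene took more than 11.9% of calls. Evenness was measured as the same-gene probability, the chance that 2 different cells drawn from a class carry the same V gene, which does not depend on the number of cells. In Gzmk-positive T cells the Trav same-gene probability was 49.7% (592 cells called) and 5.23% (18 cells) in D3TA replicates 1 and 2, against 13.3% (6 cells) and 3.33% (16 cells) in WT replicates 1 and 2. In CD8 T cells it was 53.8% (157 cells) and 2.76% (114 cells) in D3TA, against 2.51% (122 cells) and 2.87% (47 cells) in WT. The high values were those of D3TA replicate 1, D3TA replicate 2 lay within or beside the WT range, and the genotypes overlapped in both classes. The group means were 27.5 ± 31.5% in D3TA and 8.33 ± 7.07% in WT for Gzmk-positive cells, and 28.3 ± 36.1% in D3TA and 2.69 ± 0.26% in WT for CD8 cells (SD, n = 2 each). With 2 mice against 2 an exact permutation test cannot go below p = 0.33, so these values are given as a description.

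In CD4 T cells the Trav same-gene probability was 7.31% (80 cells) and 2.95% (102 cells) in D3TA, against 2.63% (92 cells) and 2.64% (118 cells) in WT. Both D3TA values were above both WT values, D3TA replicate 2 by only a fraction of a percentage point (means 5.13 ± 3.08% in D3TA and 2.63 ± 0.01% in WT; SD, n = 2 each). With the leading gene of each library left out (1 of them where leaders tied), the probability in CD8 cells was 3.60% and 2.60% in D3TA, and 2.44% and 2.44% in WT. In CD4 cells it was 6.06% and 2.56% in D3TA, and 2.49% and 1.70% in WT. D3TA replicate 1 thus stayed the highest in both classes. In Gzmk-positive cells it was 4.35% and 2.20% in D3TA, and 16.7% and 3.30% in WT, with few calls outside D3TA replicate 1. Pielou evenness is 1 when all genes seen in a class are used equally. In D3TA replicate 1 it was 0.42 in Gzmk-positive cells, 0.44 in CD8 cells and 0.86 in CD4 cells. It was 0.93 to 0.98 in every class of the other 3 libraries. Their Gzmk-positive values rest on 18, 6 and 16 calls, and Pielou evenness, unlike the same-gene probability, depends on the number of cells. A random 20 cells of D3TA replicate 1 would hold 6.30 Trav genes in Gzmk-positive cells, 5.89 in CD8 cells and 12.9 in CD4 cells. In CD8 and CD4 cells of the other libraries, 20 cells would hold 15.6 to 16.3.

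**Figure D1:**
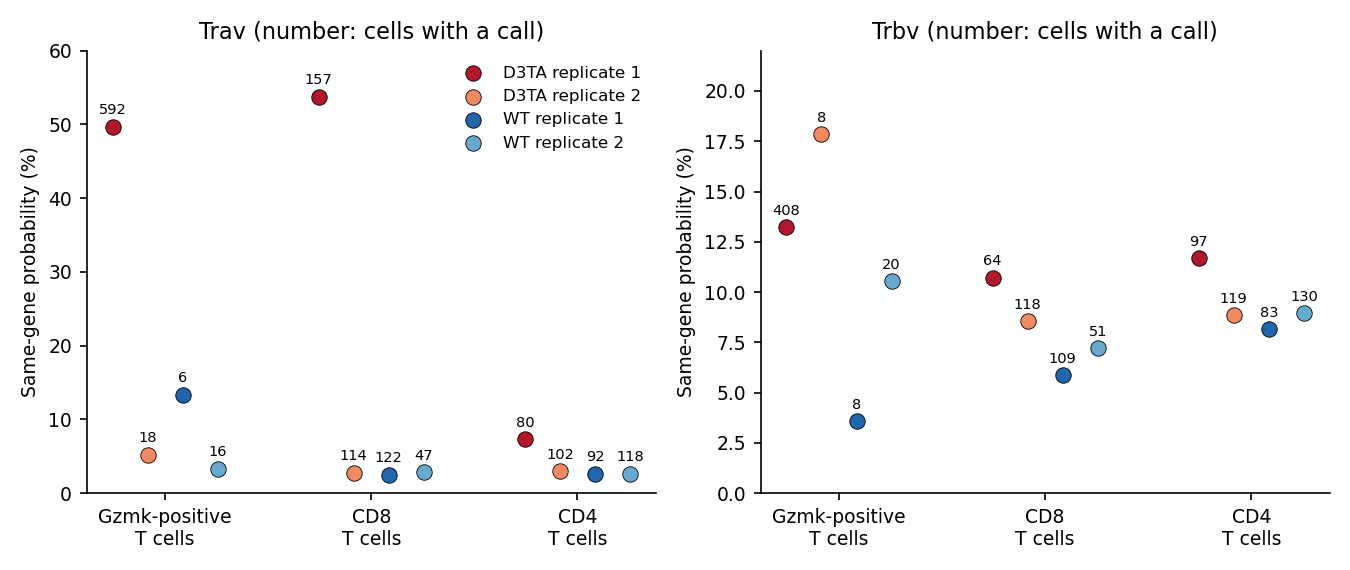
Same-gene probability (%, the chance that 2 cells of a class carry the same V gene) for Trav on the left and Trbv on the right, with a point per library and the number of called cells above it. For Trav, D3TA replicate 1 stood at 49.7% in Gzmk-positive and 53.8% in CD8 T cells, while the other CD8 points lay between 2.51% and 2.87%; the vertical scales of the panels differ.

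For Trbv no class or library reached the same-gene probability that Trav had in Gzmk-positive and CD8 cells of D3TA replicate 1. In CD8 and CD4 cells of the other 3 libraries the values were higher for Trbv, which has fewer genes, than for Trav. In Gzmk-positive T cells the Trbv same-gene probability was 13.2% (408 cells) and 17.9% (8 cells) in D3TA, against 3.57% (8 cells) and 10.5% (20 cells) in WT. In CD8 T cells it was 10.7% (64 cells) and 8.55% (118 cells) in D3TA, against 5.86% (109 cells) and 7.22% (51 cells) in WT. Both D3TA values were above both WT values in these 2 classes, but 2 of the Gzmk-positive values rested on 8 cells each. With at least 2 Gzmk UMIs required, the difference in Gzmk-positive cells, D3TA minus WT, was -5.86 percentage points in place of 8.49. In CD4 T cells it was 11.7% (97 cells) and 8.84% (119 cells) in D3TA, against 8.14% (83 cells) and 8.96% (130 cells) in WT, and the genotypes overlapped. The group means were 15.5 ± 3.28% in D3TA and 7.05 ± 4.92% in WT for Gzmk-positive cells, 9.63 ± 1.53% in D3TA and 6.54 ± 0.96% in WT for CD8 cells, and 10.3 ± 2.01% in D3TA and 8.55 ± 0.58% in WT for CD4 cells (SD, n = 2 each). Pielou evenness of Trbv lay between 0.79 and 0.98 over all classes and libraries.

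Trav21-dv12 is a V gene at chr14:53875984-53876752 whose segment can join to alpha or to delta chain segments. It was called in 416 of 592 Gzmk-positive cells of D3TA replicate 1 with a Trav call (70.3%, exact binomial 95% interval 66.4% to 73.9%, which covers counting error only). The next gene there, Trav13n-4, had 3.89%. Trav21-dv12 was called in 0 of 18 such cells of D3TA replicate 2, 0 of 6 of WT replicate 1 and 0 of 16 of WT replicate 2, which allow shares of up to 16.7%, 50% and 18.8%. Only the upper limit of WT replicate 1 came near the share in D3TA replicate 1, because so few cells were called. Among all Gzmk-positive cells, called or not, a Trav21-dv12 UMI was found in 430 of 1769 cells of D3TA replicate 1 (24.3%). It was found in 0 of 75, 0 of 22 and 0 of 96 Gzmk-positive cells of D3TA replicate 2, WT replicate 1 and WT replicate 2, which allow up to 4.00%, 13.6% and 3.13%. Levels are given as UMIs of the gene per 1000000 UMIs of the class (CPM), which is not a measure per length. Over all T cells Trav21-dv12 had 37.4 and 0.56 CPM in D3TA, and 0.35 and 1.00 CPM in WT, from 876 and 10 UMIs in D3TA, and 4 and 11 in WT. A single library was high, and D3TA replicate 2 lay within the WT range. No stretch of 50 bases of the gene is found in another annotated Trav or Trbv transcript, so its counts are not shared with an annotated copy. Transcripts of other genes were not searched.

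The cells with Trav21-dv12 in D3TA replicate 1 were mostly Cd4-bearing. Of its 454 T cells with a UMI of the gene, 430 were Gzmk-positive (94.7%), 70.0% had a Cd4 UMI and 5.29% a Cd8a or Cd8b1 UMI. Zbtb16, the factor of invariant NKT cells, had no UMI in any of the 454, and Trdc, the delta constant gene, had a UMI in 9. Split by coreceptor, Trav21-dv12 was called in 278 of 346 Gzmk-positive cells with Cd4 alone (80.3%) and in 118 of 154 with neither coreceptor (76.6%). Gzmk-positive cells with Cd8 genes alone were led by another gene, Trav13n-4, in 15 of 75 calls (20%), with a same-gene probability of 8.94%. Outside T cells of this library, a Trav21-dv12 UMI was found in 7 of 2326 B cells (0.301%) and in 25 of 6428 cells in neither gate (0.389%), far below the 24.3% of its Gzmk-positive T cells.

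Within the Gzmk-positive cells of D3TA replicate 1, the 416 cells called Trav21-dv12 were set beside the 176 cells called for another Trav gene. These are cells of a single mouse, so no test was made. Cd4 had a UMI in 70.0% of the Trav21-dv12 cells and in 40.9% of the others, and Cd8a in 2.4% and 32.4%. Eomes was detected in 89.7% of Trav21-dv12 cells and in 72.2% of the others, Pdcd1, which encodes the inhibitory receptor PD-1, in 51.7% and 36.4%, and Ikzf2, which encodes the factor Helios, in 73.6% and 55.7%. The proliferation marker Mki67 was in 27.4% of Trav21-dv12 cells and 23.9% of the others, and Tox, a factor of chronically stimulated T cells, in 100% and 95.5%. Foxp3, the factor of regulatory T cells, was in 0.7% and 2.3%. The Trav21-dv12 cells were thus higher in Cd4, Eomes, Pdcd1 and Ikzf2 and lower in Cd8a at a similar depth, with median UMIs of 6175 and 6589. Cells were not matched for coreceptor: a Cd8a or Cd8b1 UMI was found in 20 of the 416 and in 72 of the 176. The part of this mix in the Eomes, Pdcd1 and Ikzf2 values was not tested.

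**Figure D2:**
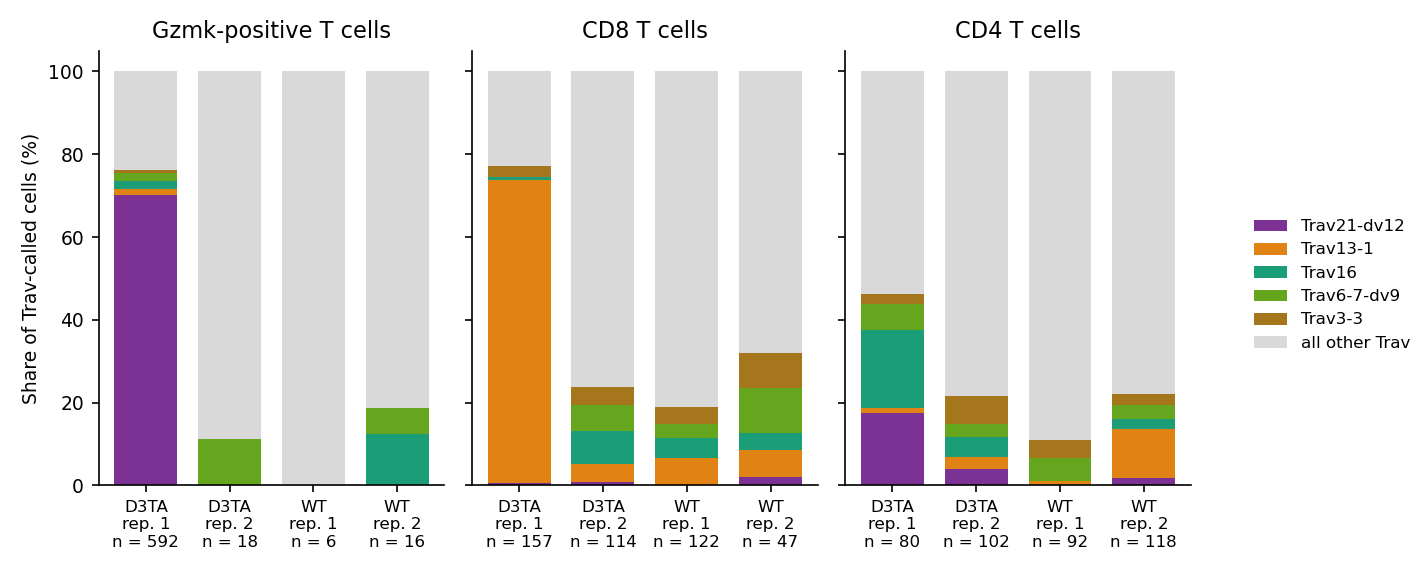
Share (%) of T cells with a Trav call that carried each of the 5 Trav genes with the most UMIs, or any other Trav gene (grey), for Gzmk-positive, CD8 and CD4 T cells of each library, with the number of called cells under each bar. Trav21-dv12 took 70.3% of calls in Gzmk-positive cells of D3TA replicate 1 and Trav13-1 took 73.2% in its CD8 cells; grey fills most of every bar in the other 3 libraries.

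Trav13-1 (chr14:53545014-53545525) was called in 115 of 157 CD8 T cells of D3TA replicate 1 with a Trav call (73.2%, interval 65.6% to 80.0%). Its share of CD8 calls was 4.4% in D3TA replicate 2, 6.6% in WT replicate 1 and 6.4% in WT replicate 2. In CD4 T cells its shares were 1.2% and 2.9% in D3TA, and 1.1% and 11.9% in WT, where it led WT replicate 2. The level of Trav13-1 in CD8 T cells was 44.1 and 0.86 CPM in D3TA, and 2.59 and 1.51 in WT. D3TA replicate 1 was high and D3TA replicate 2 was the lowest of the 4. Of 50-base stretches of Trav13-1, 54.6% are found in no other annotated Trav or Trbv transcript, so its counts are uncertain against its near-identical copies.

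Trav13-1 cells of D3TA replicate 1 also differed from their neighbours. Klre1, a killer cell lectin-like receptor gene, had a UMI in 75.7% of the 115 Trav13-1 CD8 cells and in 47.6% of the 42 CD8 cells called for another Trav gene. Tox was detected in 45.2% of Trav13-1 cells and 61.9% of the others, and Ikzf2 in 4.3% and 16.7%. Trav13-1 and Trav21-dv12 were each rare in the class the other led: Trav21-dv12 took 0.6% of CD8 calls in that library, and 8 of its 1769 Gzmk-positive cells had a Trav13-1 UMI.

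In CD4 T cells of D3TA replicate 1, Trav16 led with 15 of 80 calls (18.8%) and Trav21-dv12 followed with 14 (17.5%). Trav21-dv12 took 3.9% of CD4 calls in D3TA replicate 2, 0 of 92 in WT replicate 1 and 1.7% in WT replicate 2. How many of these CD4 cells express Gzmk below the depth of detection was not tested. In CD8 and CD4 cells of the other 3 libraries the leading Trav genes had smaller shares. In CD8 cells, D3TA replicate 2 was led by Trav16 (7.89% of 114), WT replicate 1 by Trav13-1 (6.56% of 122) and WT replicate 2 by Trav6-7-dv9 (10.6% of 47). In CD4 cells, D3TA replicate 2 was led by Trav14d-3-dv8 (9.80% of 102), WT replicate 1 by Trav16n (7.61% of 92) and WT replicate 2 by Trav13-1 (11.9% of 118). In Gzmk-positive cells, Trav5-4 led D3TA replicate 2 with 4 of 18 calls, and Trav6n-6 and Trav8d-1 had 2 of 6 each in WT replicate 1, out of few calls.

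The overlap of Trav usage, the sum over genes of the smaller of 2 libraries' shares, placed D3TA replicate 1 apart in CD8 T cells. It shared 21.2% to 25.8% of its CD8 Trav usage with each other library, while those 3 shared 51.3% to 58.7% among themselves. For Trbv in CD8 cells, D3TA replicate 1 shared 55.4% to 65.0% with each other library, and the others shared 65.7% to 74.6% among themselves. In CD4 cells these ranges were 56.4% to 64.1% and 68.8% to 82.1%. D3TA replicate 1 thus also shared the least for Trbv in both classes, in CD8 cells by a small margin.

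Among beta chain genes, Trbv14 (chr6:41135145-41135616) followed Trav21-dv12. It was the leading Trbv gene in Gzmk-positive cells of D3TA replicate 1, with 89 of 408 calls (21.8%), ahead of Trbv12-2 (18.6%) and Trbv13-2 (17.9%). Trbv14 was called in 0 of 8 cells of D3TA replicate 2, 1 of 8 of WT replicate 1 and 0 of 20 of WT replicate 2. Over all T cells Trbv14 had 6.40 and 0.22 CPM in D3TA, and 0.35 and 0.18 in WT (150 and 4 UMIs in D3TA, and 4 and 2 in WT), so a single D3TA library was high and the other lay between the WT libraries. Its 50-base stretches occur in no other annotated Trav or Trbv transcript.

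In the 114 Trav21-dv12 cells of the Gzmk-positive class that also had a Trbv call, Trbv14 was found in 60 (52.6%, interval 43.1% to 62.1%). Trbv24, which the annotation lists as a pseudogene, was found in 16 (14.0%), Trbv12-2 in 15 (13.2%) and Trbv13-2 in 11 (9.6%). Among the 36 cells with another Trav gene, Trbv14 was found in 4 (11.1%), Trbv24 in 0 and Trbv2 in 10 (27.8%). Among the 253 cells with no Trav UMI, Trbv13-2 led with 60 (23.7%), then Trbv12-2 with 56 (22.1%), and Trbv14 had 24 (9.5%). The Trbv same-gene probability was thus 32.1% in Trav21-dv12 cells, 12.1% in cells with another Trav gene and 13.3% in cells with no Trav UMI. The pair of Trav21-dv12 with Trbv14 made up 60 of the 150 Gzmk-positive cells with both chains called (40%), where the product of the 2 genes' shares among these cells was 32.4%. That class held 38 distinct pairs. Over all T cells there were 191 cells with both chains and 65 distinct pairs in D3TA replicate 1, and 35 and 34 in D3TA replicate 2, against 54 and 52 in WT replicate 1 and 50 and 47 in WT replicate 2. Almost every pair outside D3TA replicate 1 was seen in a single cell. Among CD8 cells of D3TA replicate 1, Trav13-1 with Trbv12-2 made up 4 of 16 pairs (25.0%), and Trbv calls were made in 6 of the 115 Trav13-1 cells. More than 1 Trbv gene was detected in 49 Gzmk-positive cells of D3TA replicate 1 (10.9% of those with any), most often Trbv12-2 with Trbv13-2 (14 cells).

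**Figure D3:**
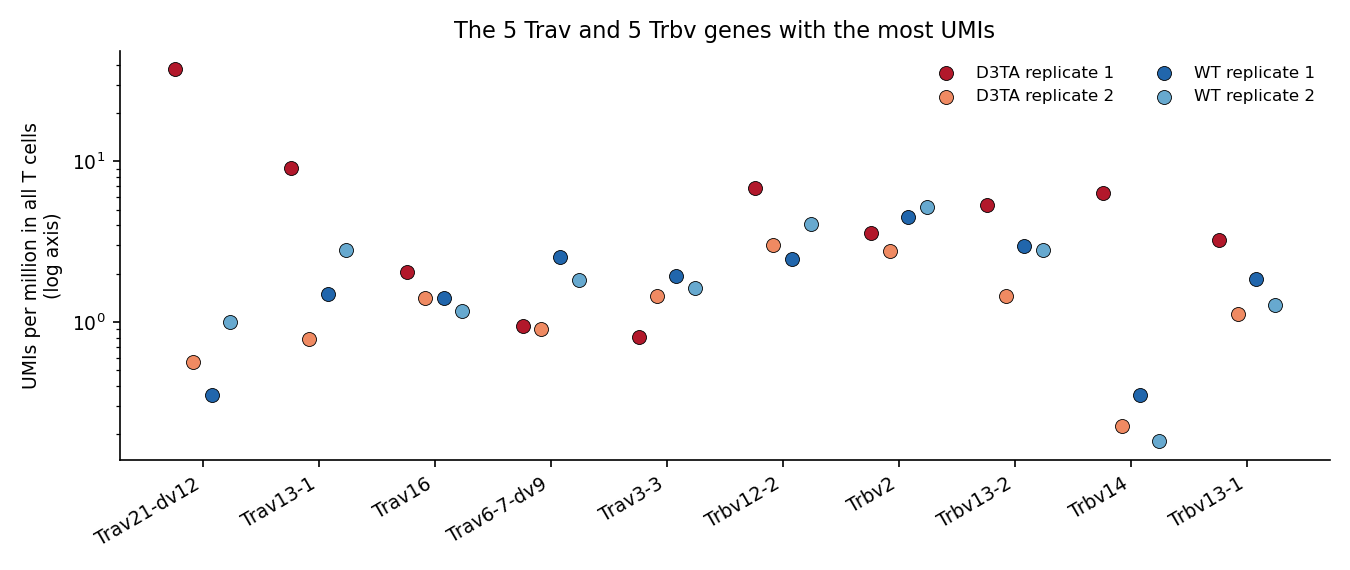
CPM (UMIs of the gene per 1000000 UMIs, log axis) in all T cells of each library for the 5 Trav and the 5 Trbv genes with the most T cell UMIs. D3TA replicate 1 stands far above the other 3 libraries for Trav21-dv12 (37.4 against 0.35 to 1.00) and Trbv14 (6.40 against 0.18 to 0.35), and above them for Trav13-1 (9.04 against 0.79 to 2.81).

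The beta constant gene gave a second readout that the V gene calls did not use. In Gzmk-positive cells of D3TA replicate 1, more Trbc2 than Trbc1 UMIs were found in 412 of 414 Trav21-dv12 cells (99.5%), against 122 of 167 cells with another Trav gene (73.1%, interval 65.7% to 79.6%). Over all Gzmk-positive cells of this library, with or without a Trav call, more Trbc2 was found in 1545 of 1723 (89.7%). In its CD8 cells, more Trbc2 was found in 109 of 112 Trav13-1 cells (97.3%, interval 92.4% to 99.4%), against 25 of 39 cells with another Trav gene (64.1%, interval 47.2% to 78.8%). In both classes the cells that shared an alpha V gene were nearly uniform for their beta constant gene. The intervals cover counting error only and the cells came from a single mouse, so no test was made. All CD8 cells of the WT libraries, for comparison, had more Trbc2 in 392 of 576 cells of WT replicate 1 (68.1%) and in 162 of 232 of WT replicate 2 (69.8%). Gzmk-positive cells had more Trbc2 in 49 of 72 cells of D3TA replicate 2 (68.1%). In WT they did so in 19 of 22 cells of replicate 1 (86.4%) and 65 of 93 of replicate 2 (69.9%). Other genes varied in Gzmk-positive cells of D3TA replicate 1. More Trbc2 was found in 10 of 20 Trav13n-4 cells (50%) and in 15 of 21 Trbv3 cells (71.4%). Near-uniform values were also found, in 71 of 73 Trbv13-2 cells (97.3%) and 73 of 75 Trbv12-2 cells (97.3%). Trbv2 cells had more Trbc2 in 36 of 40 (90.0%). Trbc1 and Trbc2 have near-identical coding sequences, so a part of their reads could have been assigned to the wrong gene.

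**Figure D4:**
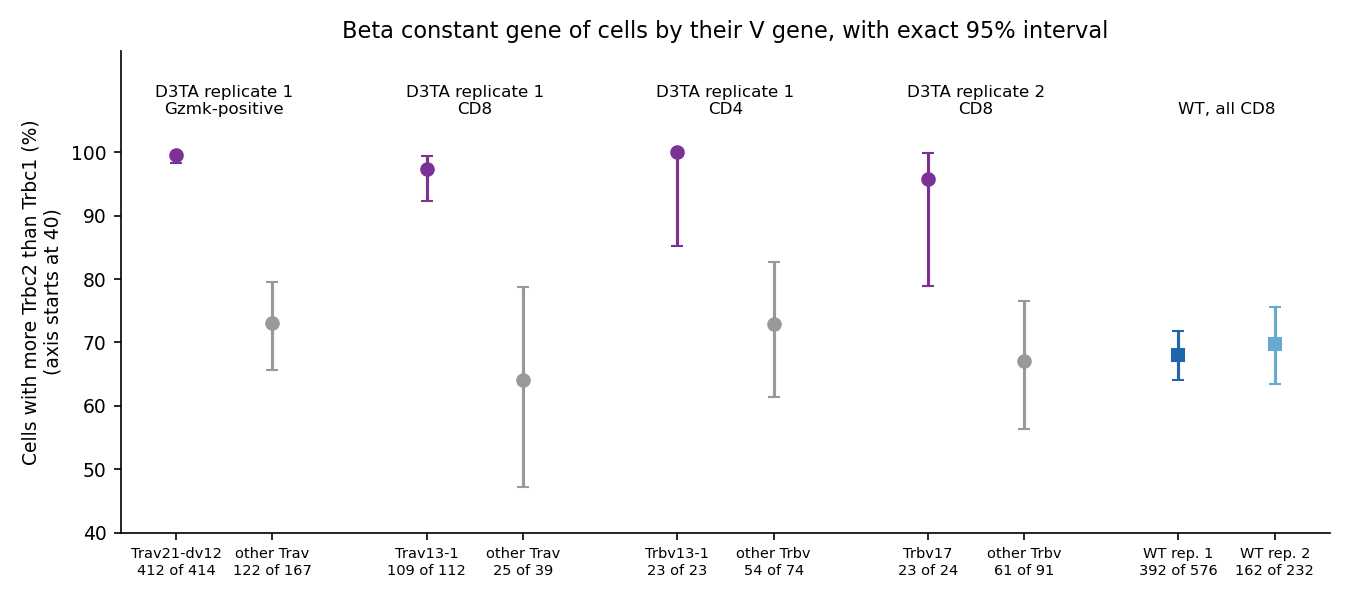
Percent of cells with more Trbc2 than Trbc1 UMIs, by V gene, with exact binomial 95% intervals (axis from 40%). Cells of the named V gene (purple) sit at 95.8% to 100%, cells of the same class and library with another V gene (grey) at 64.1% to 73.1%, and all CD8 T cells of WT replicates 1 and 2 (squares) at 68.1% and 69.8%.

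D3TA replicate 1 and D3TA replicate 2 each had a smaller beta chain group. In CD4 T cells of D3TA replicate 1, Trbv13-1 led with 23 of 97 calls (23.7%), and its CD4 shares were 5.9% in D3TA replicate 2, and 4.8% and 3.8% in WT. More Trbc2 than Trbc1 was found in 23 of these 23 cells, against 54 of 74 CD4 cells with another Trbv gene (73.0%). Foxp3 had a UMI in 14 of the 23 (60.9%), against 18 of the 74 (24.3%), and Pdcd1 in 21 of the 23 (91.3%), against 32 of the 74 (43.2%). A UMI of Foxp3 or Pdcd1 was thus found in a larger part of the Trbv13-1 cells. These shares were not adjusted for depth. The 23 cells held 0 Trbc1 and 930 Trbc2 UMIs, against 272 and 1155 in the 74 others. A Trav gene was called in 4 of the Trbv13-1 cells, Trav16 in 2 and Trav9-4 in 2.

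In CD8 T cells of D3TA replicate 2, Trbv17 led with 24 of 118 calls (20.3%), while D3TA replicate 1 had 1 of 64 calls, WT replicate 1 had 3 of 109 and WT replicate 2 had 2 of 51. Trdc had a UMI in 19 of these 24 cells (79.2%, interval 57.8% to 92.9%), against 6 of 94 CD8 cells with another Trbv gene (6.4%). The gamma constant genes Tcrg-C1, Tcrg-C2 and Tcrg-C4 had no UMI in any of the 24, and 0, 1 and 0 of the 94 others had a UMI, while Trac had a UMI in 22 of the 24. Ccl5 was detected in 24 of the 24 and in 51 of the 94 others, Eomes in 21 and 32, and Klre1 in 16 and 17. More Trbc2 was found in 23 of 24 Trbv17 cells (95.8%), against 61 of 91 with another Trbv gene (67.03%). Most Trbv17 cells thus had UMIs of both the alpha and the delta constant gene, and all had Ccl5. These shares were not adjusted for depth. The 24 cells held 25 Trbc1 and 470 Trbc2 UMIs, against 429 and 664 in the 94 others. A Trdc UMI was found in 0.9% and 15.9% of all CD8 cells in D3TA, and in 4.4% and 1.7% in WT, so D3TA replicate 2 was the highest.

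Other Trbv genes led the remaining populations. Among CD8 cells, D3TA replicate 1 was led by Trbv3 (21.9% of 64 calls) and Trbv12-2 (20.3%), WT replicate 1 by Trbv2 (12.8% of 109) and WT replicate 2 by Trbv12-2 (15.7% of 51). Among CD4 cells, Trbv2 led D3TA replicate 2 (20.2% of 119) and WT replicate 2 (20.8% of 130), and Trbv13-2 led WT replicate 1 (15.7% of 83). Among Gzmk-positive cells, Trbv15 had 3 of 8 calls in D3TA replicate 2, Trbv2 had 2 of 8 in WT replicate 1, and Trbv12-2 had 5 of 20 in WT replicate 2.

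CD8 and CD4 T cells of the same mice were compared for the level of each V gene, relative to all RNA of the class. Trbv UMIs as a whole were at 18.1 and 18.6 CPM in CD8 cells of D3TA, and 23.0 and 24.5 in those of WT. In CD4 cells they were at 51.3 and 27.0 CPM in D3TA, and 41.1 and 33.5 in WT. Trbv RNA was thus lower in CD8 cells of every library, so a lower level of a gene need not be a lower share. Trbv2 and Trbv20 were lower in CD8 than in CD4 T cells of all 4 libraries. Trbv2 had 0.459 and 1.35 CPM in CD8 cells of D3TA, and 3.11 and 2.64 in CD8 cells of WT. In CD4 cells of the same libraries it had 7.07 and 5.68 in D3TA, and 8.62 and 7.39 in WT. The CD8 and CD4 values did not overlap. The log2 fold change of Trbv2, CD8 over CD4, was -1.85 ± 0.39 (SE, n = 4 libraries; adjusted p = 0.0144, edgeR quasi-likelihood test with library as a term and Benjamini-Hochberg adjustment over all 11465 genes tested). Trbv20 had 0.459 and 0.616 CPM in CD8 cells of D3TA, and 1.38 and 0.753 in those of WT, against 3.38 and 2.74 in CD4 cells of D3TA, and 3.10 and 3.22 in those of WT. Its groups did not overlap either, with a log2 fold change of -1.78 ± 0.40 (SE; adjusted p = 0.0192 in the edgeR quasi-likelihood test). Of the 92 members, 5 passed the filter on low counts and 2 were called, both lower in CD8, where 24.9% of all genes tested were called and 12.9% were called lower. The other 3, Trbv13-2 (-1.17 ± 0.41, adjusted p = 0.0834), Trbv3 (-0.65, adjusted p = 0.442) and Trbv12-2 (-0.19, adjusted p = 0.729; edgeR quasi-likelihood test), did not pass. DESeq2 called Trbv2 and Trav9-4 and not Trbv20, and called 16.0% of all genes.

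As a share of called cells, the difference of Trbv2, CD8 minus CD4, was -14.4 and -11.7 percentage points in D3TA, and -1.61 and -10.97 points in WT. WT replicate 1 showed little of the difference on this scale. The share of Trbv20 was not compared. Without D3TA replicate 2 the adjusted p of Trbv2 was 0.0729 and that of Trbv20 was 0.0910, and without WT replicate 2 that of Trbv20 was 0.0707 (edgeR quasi-likelihood test).

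**Figure D5:**
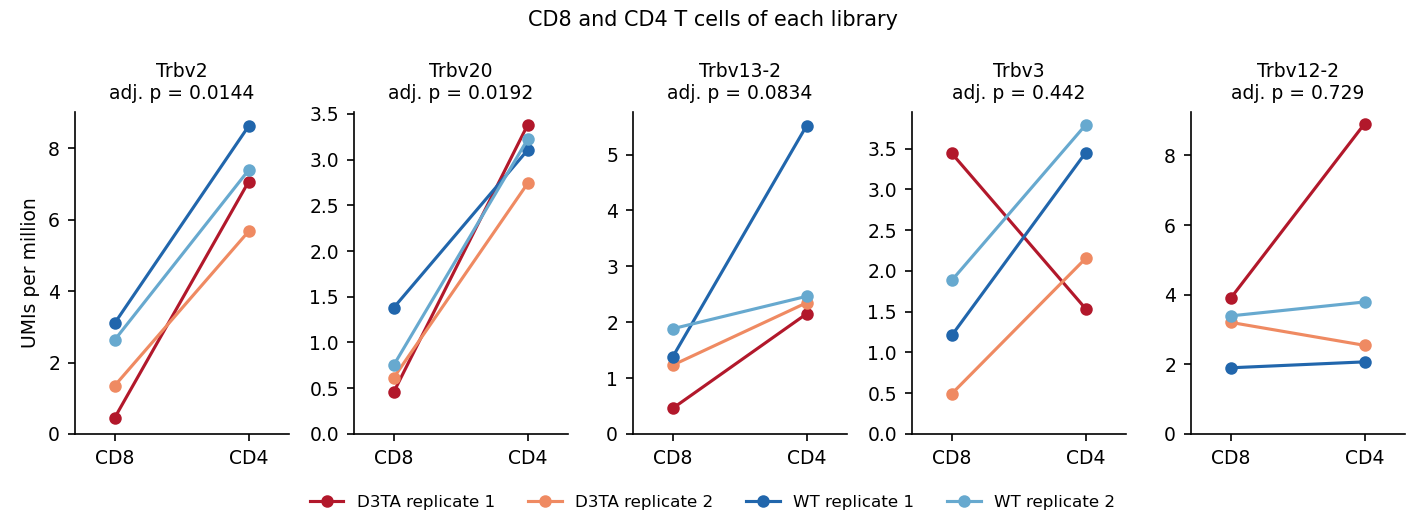
CPM in CD8 and CD4 T cells of each library, joined by a line, for the 5 V genes tested in this comparison, with the adjusted p of the edgeR quasi-likelihood test; each panel has its own scale from 0. For Trbv2 and Trbv20 the CD8 point lies below the CD4 point in all 4 libraries.

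In the comparison of Gzmk-positive with CD8 T cells, 3 members passed the filter and 0 were called, where 11.6% of all genes were called. At an unadjusted p under 0.05 the edgeR quasi-likelihood test gave 1 of the 3, Trbv2 (1.48 ± 0.66), where 23.9% of all genes reached that level, and DESeq2 called 1 member, Trav6n-6, and 9.73% of all genes. Trav21-dv12 did not pass the filter there, since it was at 0 in Gzmk-positive cells of 3 libraries.

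Between genotypes, no member passed the threshold in any T cell class. Over all T cells 33 of the 92 members were tested and 0 were called by edgeR's quasi-likelihood test, where 0.0% of all 13954 genes were called, and DESeq2 also called 0. At an unadjusted p under 0.05 there were 7 of the 33, all lower in D3TA, where 8.28% of all genes reached that level and 2.17% did so lower in D3TA. These 7 were Trbv20 (log2 fold change -1.17 ± 0.40), Trbv26, Trav4-3, Trav13-2, Trav9-4, Trav6-7-dv9 and Trav14-3. Of the 33, 25 had a negative fold change, with a median of -0.74, against 0.01 over all genes tested. The values are relative to all T cell RNA and the members tested were those with enough counts, so no support is drawn from them. Trav21-dv12 had a log2 fold change of 4.82 ± 1.95 (SE, n = 2 against 2; unadjusted p = 0.056, adjusted p = 0.628 in the edgeR quasi-likelihood test), and Trav13-1 of 1.21 ± 1.12. Without D3TA replicate 2 the edgeR test called Trav21-dv12 (5.79) and Trbv14 (4.54), and 3.04% of all genes were called. That fit has a single D3TA library, which is assumed to vary as the WT libraries do, and Trbv14 passed its filter but not that of the fit of all 4 libraries, so these values restate the level of D3TA replicate 1. Without D3TA replicate 1, Trav21-dv12 was at -0.29 and Trav13-1 at -1.48, so the direction of both rested on that library.

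In CD8 T cells 3 members were tested and 0 called, where 0.263% of genes were called by edgeR. Trav13-1 had a log2 fold change of 3.28 ± 1.53, D3TA over WT (adjusted p = 0.515, edgeR quasi-likelihood test), and Trbv2 of -1.60. In CD4 T cells 6 members were tested and 0 called, where 0.103% of genes were called, with a median of -0.29 against 0.01 over all genes. In Gzmk-positive T cells none of the 92 members passed the filter, and 0.206% of genes were called; no member had counts enough in at least 2 libraries. No member of these classes reached an unadjusted p under 0.05 in the edgeR test, and DESeq2 called 0. Tests of whether a class difference depended on genotype called 0 of 13 members for CD8 against CD4 (0.0% of all genes called) and 0 of 5 for Gzmk-positive against CD8 (0.726% of all genes called), with 0 at an unadjusted p under 0.05 in either, and DESeq2 called 0 in either.

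The genes that carry and relay the receptor's signal were listed alongside: the constant chains, the CD3 chains, coreceptors, kinases and adaptors, and costimulatory and inhibitory receptors, 39 genes in all. None was called between D3TA and WT in all T cells, CD8, CD4 or Gzmk-positive T cells, with medians between -0.07 and 0.04, against 0.00 to 0.02 over all genes. Leaving out the 6 genes used in the gates, 17 of 33 were called between CD8 and CD4 cells, 3 higher in CD8 and 14 lower (24.9% of all genes called). Those higher included Themis (0.78), which is needed for thymocyte selection, and Prkcq (0.44), which encodes protein kinase C theta. Among those lower were Pdcd1 (-4.88), the inhibitory receptor gene Ctla4 (-3.28), the costimulator gene Icos (-2.12), Cd5 (-1.19), a damper of receptor signals, Trac (-0.58 ± 0.08, adjusted p = 0.0029) and Trbc1 (-0.40 ± 0.08, adjusted p = 0.0133; log2 fold changes of the edgeR quasi-likelihood test).

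Between Gzmk-positive and CD8 cells, 16 of the same 33 genes were called, 12 higher in Gzmk-positive cells and 4 lower (11.6% of all genes called). Those higher included Pdcd1 (4.19), Ctla4 (2.27), the kinase gene Fyn (1.25), Icos (1.23) and Cd28 (1.07), which encodes the main costimulator. Gzmk-positive cells had a Cd4 UMI in 58.2% and 28% of cells in D3TA, and in 50% and 36.5% in WT. CD8 cells had none by their gate. Pdcd1, Ctla4 and Icos were also higher in CD4 than in CD8 cells, and the part of the coreceptor here was not tested. Those lower included the phosphatase gene Ptpn6 (-1.04), Rasgrp1 (-0.57) and Prkcq (-0.40). Of 18 gamma and delta chain genes, 4 were tested in that comparison, and the gamma constant genes Tcrg-C2 (1.92 ± 0.46, adjusted p = 0.0215) and Tcrg-C4 (2.02 ± 0.54, adjusted p = 0.0336, edgeR quasi-likelihood test) were higher in Gzmk-positive cells. The recombination genes Rag1, Rag2, Dntt and Ptcra, which act in the thymus, had at most 1 gene tested in any comparison and 0 called.

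The alpha V genes of the semi-invariant lineages gave few UMIs. Trav11, the alpha V gene of invariant NKT cells, was detected in 1 and 2 T cells in D3TA, and in 2 and 2 in WT, and 6 of these 7 cells had a Zbtb16 UMI. None of the 50-base stretches of Trav11 is found in it alone, so its counts do not show how common such cells were. Trav1, the alpha V gene of MAIT cells, was in 1 and 2 T cells in D3TA, and in 0 and 3 in WT. Among beta genes that such cells also use, Trbv29 was in 15 and 15 T cells in D3TA, and in 9 and 11 in WT. Trbv1 was in 18 and 24 in D3TA, and in 18 and 20 in WT. The counts of these V genes are too low to compare the genotypes. Trbv13-2, another such beta gene, was in 114 and 23 T cells in D3TA, and in 31 and 27 in WT, so a single D3TA library was high. Of these cells, 4 and 4 had a Zbtb16 UMI in D3TA, and 4 and 1 in WT.

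Members annotated as pseudogenes numbered 6, and the 3 with the most UMIs were Trav22 (87 UMIs over all barcodes), Trbv24 (57) and Trav8-2 (29). In T cells Trav22 had 27 and 8 UMIs in D3TA, and 8 and 3 in WT, and Trbv24 had 38 and 4 in D3TA, and 4 and 2 in WT. Trbv24 was thus also most abundant in D3TA replicate 1, where it was found beside Trav21-dv12. The mouse Trav region holds duplicated blocks of genes, whose copies are named with d or n: by symbol 14 members were d copies, 11 were n copies and 44 had no letter. Under 50% of 50-base stretches were found in no other Trav or Trbv transcript for 27 of the 69 Trav members, which held 20.7% of Trav UMIs. This held for none of the 23 Trbv members, 19 of which had no shared stretch. Shares of single Trav copies are uncertain for that reason, whereas Trav21-dv12 and Trbv14 are not affected.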

How the data were processed

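Gene expression was measured by droplet single-cell RNA sequencing of 4 spleens, 2 of D3TA and 2 of WT mice. The authors deposited unnormalised UMI counts per gene and cell barcode. Per the file headers they were made by Cell Ranger, version 7.0.1, and per the submitters' processing notes on build mm10; no counting option or strand setting was given in the sources used here. Each library is a separate mouse, so p-values between genotypes weigh a difference against the spread between mice. Those between classes of the same mice weigh it against the spread of the class difference over mice.

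Barcodes were kept as cells from 500 UMIs and 250 genes upward if no more than 10% of UMIs were mitochondrial, and 1615 doublets called by Scrublet (scanpy 1.11.5, expected rate 6%) were removed (5.66% and 3.44% in D3TA, 1.47% and 2.50% in WT). A T cell had at least 2 UMIs of Cd3d, Cd3e and Cd3g and more of them than of the B cell genes Cd79a, Cd79b and Ms4a1 and of the myeloid genes Csf1r, Csf3r and Cd68. A B cell had at least 2 UMIs of those B cell genes and no Cd3 UMI. V gene calls, same-gene probabilities and exact (Clopper-Pearson) 95% intervals were computed in Python 3.11.15 with scipy 1.17.1; the intervals and the limit of 3 counts for a count of 0 cover counting error only. For each library and class the counts of all cells were added up, and the sums entered the quasi-likelihood test of edgeR 4.0.16 in R 4.3.3 (filterByExpr, TMM normalisation, two-sided, Benjamini-Hochberg over all genes tested, threshold 0.05). DESeq2 1.42.0 was an alternative. The fits were tested on simulated data, with changes in genes above a minimum mean count and a set spread. Between genotypes, 4-fold changes were recovered in 81% to 92% of genes and 2-fold changes in 11.5% to 26.3%. Between classes these were 98% to 100% and 57% to 66%, and in the tests by genotype of a class difference 23% to 41% and 1% to 3%. A gene that was not called can thus still differ.

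V genes named were the 5 Trav and 5 Trbv genes with the most T cell UMIs, those called in a comparison, the leaders of each class and library, the leading pairs, the 3 leading pseudogenes and the V genes of semi-invariant T cells. Trbv17, Trbv24, Trav13n-4 and genes named beside marker values were added where a result turned on them. The members, lists and genes were chosen with earlier results of these data known.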

Additional observations from a re-analysis of the deposited data

Results flagged for a closer look

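Trbv13-1 differed in sign between the genotypes on the scale of shares. Its share of Trbv calls, CD8 minus CD4 T cells, was -15.9 and -1.65 percentage points in D3TA replicates 1 and 2, against 1.60 and 5.96 points in WT replicates 1 and 2. Both D3TA libraries were below 0 and both WT libraries above it, and the difference between the genotypes was not tested on this scale. The value of D3TA replicate 1 rests on the Trbv13-1 cells of its CD4 class. On the scale of levels, Trbv13-1 had 2.29 and 0.86 CPM in CD8 cells of D3TA, and 1.38 and 1.88 CPM in those of WT, against 12.6 and 1.57 CPM in CD4 cells of D3TA, and 2.07 and 1.14 CPM in those of WT. WT replicate 1 was thus lower in CD8 cells, as both D3TA libraries were. The test of the class difference by genotype did not call it (log2 value -1.87 ± 0.96, adjusted p = 0.894, edgeR quasi-likelihood test).

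Trav21-dv12 was also found outside the T cells of D3TA replicate 1, in 0.301% of its B cells (interval 0.121% to 0.619%) and in 0.389% of its cells in neither gate. In D3TA replicate 2 it was found in 0 of 4593 B cells and 0 of 3882 cells in neither gate. In WT replicate 1 it was found in 1 of 12176 and 4 of 8407 such cells, and in WT replicate 2 in 0 of 4931 and 0 of 1525.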

How the results depend on the processing

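Of the counts and differences that answer a comparison, 138 values under the alternatives were labelled unchanged and 23 moved. A count of called members was unchanged if equal or close to the reported count. A same-gene difference was unchanged if it shifted by less than the pooled SD of the genotypes, whatever its sign. With 2 libraries per genotype, leaving 1 out cannot shift it by more than that SD, so those labels were fixed in advance. With no filter on low counts, 1 of 82 members was called in CD8 T cells (4.48% of all genes), 1 of 88 in CD4 T cells (2.81%) and 3 of 77 in Gzmk-positive T cells (0.747%) between D3TA and WT, 0 in each as reported. Likewise 6 of 90 were called between Gzmk-positive and CD8 cells (9.01% of all genes), and 1 of 91 and 1 of 90 in the tests by genotype of CD8 against CD4 (1.71%) and Gzmk-positive against CD8 (0.83%). DESeq2 called 1 of 20 between Gzmk-positive and CD8 cells (9.73%). Leaving out each library in turn gave 0 to 2 calls in all T cells, 0 to 1 in CD8 T cells, 0 to 3 in CD4 T cells, 0 to 1 in Gzmk-positive T cells, 0 to 2 between CD8 and CD4 cells and 0 to 1 in each test by genotype. Leaving out D3TA replicate 2 gave the calls in all T, CD8, CD4 and Gzmk-positive cells and by genotype, with 3.04%, 22.5%, 15.2% and 2.69% of all genes called in those 4 cell groups, and 7.72% and 2.41% in the tests by genotype of CD8 against CD4 and Gzmk-positive against CD8. Such a fit has 1 D3TA library, assumed to vary as the WT libraries do. Leaving out WT replicate 1 gave 1 call in CD8 (1.47% of all genes) and 1 in Gzmk-positive cells (0.792%), and WT replicate 2 gave 1 in Gzmk-positive cells (1.5%). Between CD8 and CD4 cells there were 0 calls without D3TA replicate 2 (13.9% of all genes) and 1 without WT replicate 2 (14.6%). In all T cells the log2 fold change of Trav21-dv12 ranged from -0.29 without D3TA replicate 1 to 5.79 without D3TA replicate 2, and that of Trav13-1 from -1.48 to 2.08. Trbv20 missed the threshold with DESeq2 (adjusted p = 0.0797).

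The Trbv same-gene probability, D3TA minus WT, was 1.72 points in CD4, 3.09 in CD8 and 8.49 in Gzmk-positive cells. With at least 2 UMIs of the leading gene it was -2.82 in CD4 and 9.97 in CD8 cells, with gene families joined 4.12 in CD4 cells, and with at least 2 Gzmk UMIs -5.86 in Gzmk-positive cells; the cause was not tested. The Trav differences of 19.1 points in Gzmk-positive and 25.6 in CD8 cells ranged from -3.10 to 41.4 and from 0.08 to 51.1, and the low ends were those without D3TA replicate 1.

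The labels give replicate numbers only, and same-numbered libraries deviated in opposite directions (correlation of the deviations -0.20 in all T cells and -0.13 in Gzmk-positive cells). With the replicate number as a block, 0 members were called in all T, CD8, CD4 and Gzmk-positive cells. With the crossed pairing as a block, chosen after seeing the data, 1 member was called in all T cells (2.88% of all genes) and 0 in the other 3 classes.

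Sparse V gene detection limits every share: 18, 6 and 16 called cells stand for the Gzmk-positive class of D3TA replicate 2, WT replicate 1 and WT replicate 2, and junction sequences were not analysed here.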
